A study of Mus musculus with 12 samples.

Results

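The genes described here encode the core of mitochondrial fatty acid oxidation. They were chosen by name as 10 of the 13780 genes in the count table: the carnitine palmitoyltransferases Cpt1a and Cpt2, the acyl-CoA dehydrogenases Acadvl, Acadl and Acadm, the trifunctional protein subunits Hadha and Hadhb, and the electron transfer flavoprotein genes Etfa, Etfb and Etfdh. Each symbol matched 1 row. RNA was sequenced from mouse CD8+ T cells in 12 libraries, 4 for each of 3 groups. Naïve cells were frozen directly after isolation. The other libraries came from cells activated for 72 h with beads carrying antibodies to CD3 and CD28, together with recombinant human IL-2, in plain media (media) or with 40 mM sodium lactate added (lactate). All cells came from spleens of adult wild type C57BL/6J mice and were taken by positive magnetic bead selection. Naïve libraries came from 4 donors and activated libraries from 5 independent donors, and 3 of those supplied cells to both culture conditions. The control received no matching sodium salt, so that lactate, sodium and osmolarity cannot be told apart.

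Long-chain fatty acids are burned inside the mitochondrial matrix. CPT1A on the outer membrane joins the acyl chain to carnitine, a carrier brings the acylcarnitine across the inner membrane, and CPT2 returns the chain to coenzyme A. Acyl-CoA dehydrogenases then introduce a double bond and hand the electrons to the flavoprotein ETF, which passes them through ETFDH to ubiquinone, while the trifunctional protein completes the remaining steps of the cycle for long chains. Effector CD8+ T cells are known for glycolytic growth, and memory CD8+ T cells for a greater reliance on fatty acid oxidation.

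Libraries held 14726904 to 21478137 counts, and the members had between 58 counts (Etfb in a naïve library) and 5255 counts (Hadha in a lactate library). Together they took 0.0611% ± 0.00167 (SD, n = 4) of all counts in naïve cells, 0.0827% ± 0.00329 in media and 0.0869% ± 0.00435 with lactate. Markers of CD8+ T cells were present in every library, but the naïve libraries also carried transcripts of other cells. The summed level of 5 B cell markers was 467 to 1130 CPM in naïve libraries and 9.03 to 16.1 CPM in media, that of 9 myeloid and dendritic cell markers 575 to 1651 and 12.0 to 18.9 CPM, and that of 4 red cell markers 84.1 to 3369 and 0 to 0.231 CPM. Naïve replicate 4 stood apart, with Cd8a at 388 CPM against 849 to 1208 CPM in the other naïve libraries. Marker levels also moved between the activated groups. Summed over the list, 6 CD8+ T cell markers gave 1991 to 4036 CPM in naïve libraries, 3095 to 3879 CPM in media and 2303 to 2901 CPM with lactate, where 3 of the 6 were called lower than in media. With lactate the B cell markers were at 5.69 to 7.65 CPM, the myeloid and dendritic cell markers at 7.89 to 11.5 CPM and the red cell markers at 0.0707 to 1.90 CPM. The 4 CD4+ T cell markers gave 44.3 to 76.5 CPM in naïve libraries, 48.0 to 60.7 CPM in media and 83.7 to 96.6 CPM with lactate. Most of the sum in activated cells was Zbtb7b, with means of 47.4 CPM in media and 81.4 CPM with lactate. Cd4 itself had means of 22.1 CPM in naïve cells, 0.348 CPM in media and 0.541 CPM with lactate. The 4 NK cell markers gave 6.52 to 16.6, 0.709 to 1.34 and 2.10 to 5.59 CPM in the same order. In activated cells most of that sum was Klre1, with means of 1.08 CPM in media and 3.45 CPM with lactate. The part of other cells in the differences between any of the groups was not tested. In bulk RNA, fewer cells of a type and less RNA per cell cannot be told apart. Library numbers in the labels fall into a low run of 8 libraries and a high run of 4, which holds naïve replicate 4, media replicate 4 and lactate replicates 3 and 4, and what separates the runs is not stated. CPM are counts relative to library size, scaled by the TMM method. A gene was called when its adjusted p was at most 0.01 in the quasi-likelihood test of edgeR, with adjustment over all 13767 genes tested. All 10 members were tested.

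Of the 10 genes 5 were higher after activation in media than in naïve cells and none was called lower, and the background was high, since 57.5% of all genes tested were called, 28.5% higher and 29% lower. The higher ones were Acadl, Etfa, Cpt2, Etfdh and Acadvl. The median log2 fold change of the 10 genes was 0.45, beside -0.03 for all genes. With lactate against naïve cells 6 of the 10 genes were higher (Acadl, Etfa, Etfb, Cpt2, Acadvl and Hadha) and 1, Acadm, was lower, beside 65% of all genes called (33% higher, 32% lower), and the median was 0.66. Groups did not overlap for 7 of the 10 genes in media against naïve, beside 61.2% of all genes, and for 8 with lactate against naïve, beside 67.8%. Both comparisons share the naïve libraries. Lactate against media compares activation with and without the added sodium lactate. Here 2 of the 10 genes were called, Etfa and Acadvl, both higher, a share near the background of 25.1% of all genes tested (13.9% higher, 11.1% lower). The median was 0.05, beside -0.0016 for all genes, and 5 of the 10 values were positive. The counts of members called moved when single libraries were left out. In media against naïve 5 became 7 without naïve replicate 4 and 3 without media replicate 4, in lactate against naïve 7 became 9 without naïve replicate 4 and 5 without naïve replicate 3, and in lactate against media 2 became 3 without naïve replicate 4 and 1 without lactate replicate 4. Calls over all genes moved too. Without single libraries they ran from 7074 to 8357 in media against naïve, beside 7915 in the full fit. In lactate against naïve they ran from 8113 to 9335, beside 8944, and in lactate against media from 2252 to 4845, beside 3451.

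**Figure D1:**
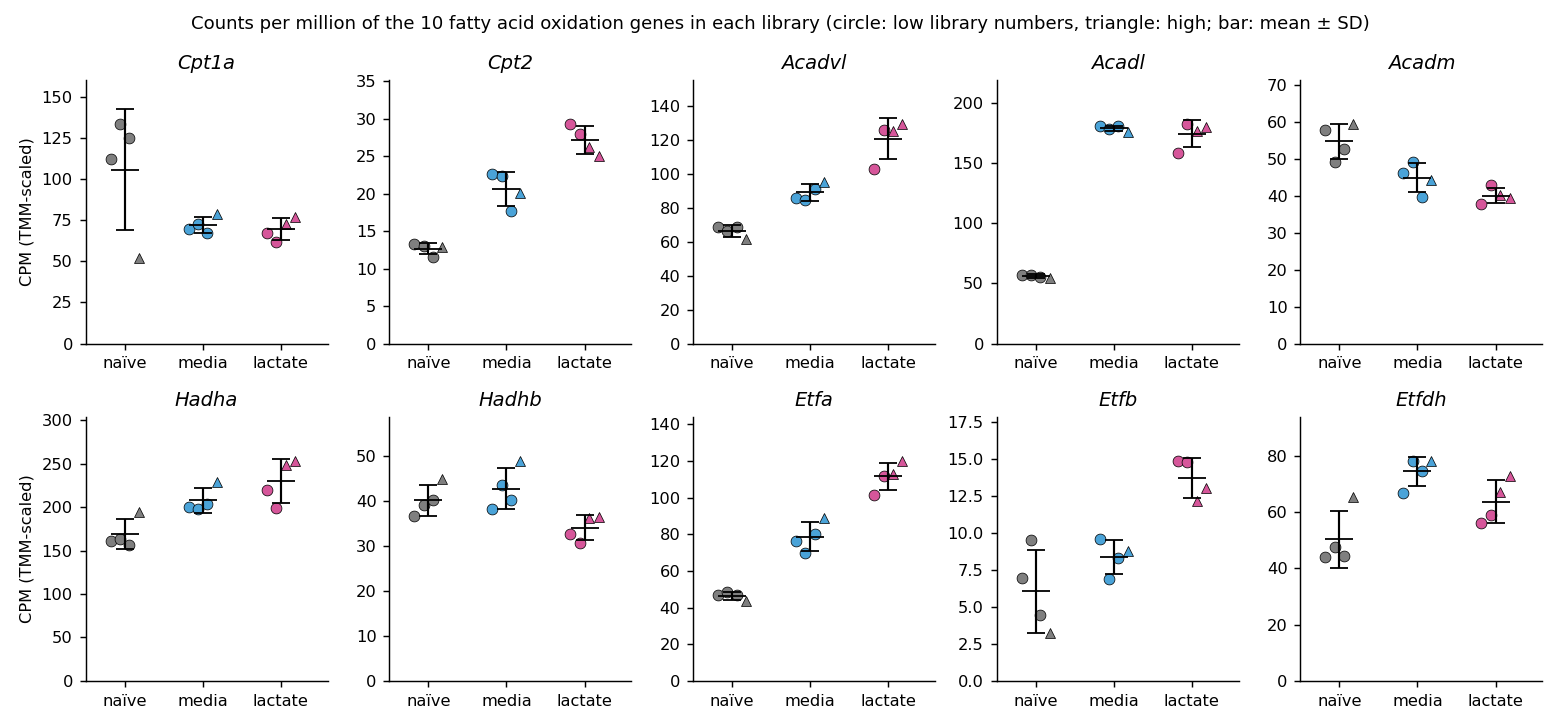
CPM of each gene in each of the 12 libraries (circles, low run of library numbers; triangles, high run), with the mean ± SD of the 4 libraries of a group as bars and each vertical axis starting at 0. Acadl sits between 54.2 and 57.3 CPM in naïve libraries and between 158 and 183 CPM in all 8 activated libraries, while Etfa and Acadvl step up from naïve to media and again to lactate.

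Compared per length, Acadl and Etfa were the most abundant of the 10 transcripts in activated cells. In TPM with the length of the longest coding transcript, Acadl had 70.4 ± 1.56 (SD, n = 4) in naïve cells, 222 ± 8.92 in media and 197 ± 9.52 with lactate, and Etfa had 79.9 ± 1.30, 134 ± 10.7 and 174 ± 6.85. They held the first and second place in both activated groups. Cpt2 was last, at 12.9 ± 0.927, 20.7 ± 2.50 and 24.9 ± 2.71 TPM, close to Etfb in media at 22.3 ± 3.11 TPM, from which it did not differ beyond the spread. With the union of all exons as the length, Acadl and Etfa kept those places in activated cells, but Hadha moved from the third to the fourth place and from 123 ± 4.89 to 82.4 ± 2.97 TPM in media. The order below the second place therefore depended on the length chosen.

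At the carnitine gate Cpt2 was called higher in activated than in naïve cells, and Cpt1a was not called in any comparison. Cpt1a (chr19:3322334-3385733, plus strand, GRCm38) encodes the rate-limiting enzyme of entry, which malonyl-CoA inhibits. Its level was 112, 134, 125 and 52.2 CPM in naïve replicates 1 to 4, then 69.6, 72.6, 67.4 and 78.8 CPM in media and 67.2, 61.7, 72.4 and 76.7 CPM with lactate. Naïve replicates 1 to 3 were thus above all activated libraries and naïve replicate 4 was below them. The log2 fold change of media against naïve was -0.55 ± 0.22 (SE, adjusted p = 0.041, edgeR) and that of lactate against naïve -0.60 ± 0.22 (adjusted p = 0.025), neither called. Naïve replicate 4 decided both: without it the values were -0.78 (adjusted p = 1.3e-05) and -0.84 (adjusted p = 5.8e-06), and media against naïve was 0.59 in the high run, where it is the naïve library, and -0.82 in the low run. Media and lactate overlapped for Cpt1a, with a log2 difference of -0.05 and a 95% interval from -0.53 to 0.43.

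Cpt2 (chr4, on the inner membrane side of the shuttle) stood at 13.2, 13.0, 11.6 and 12.9 CPM in naïve libraries, at 22.6, 22.3, 17.7 and 20.1 CPM in media and at 29.4, 28.0, 26.2 and 25.1 CPM with lactate. The groups formed steps without overlap. Media against naïve gave a log2 fold change of 0.71 ± 0.11 (SE, 1.63-fold, adjusted p = 0.00012, edgeR) and lactate against naïve 1.10 ± 0.11 (2.14-fold, adjusted p = 2.2e-06). The lactate difference of 0.39 ± 0.11 (1.31-fold, adjusted p = 0.014) did not pass in the edgeR fit, although every lactate library was above every media library. It passed in DESeq2 (adjusted p = 0.0053) and without naïve replicate 4 (adjusted p = 0.0089), and within the runs of library numbers it was 0.46 (low) and 0.35 (high). Of the 10 genes 5 had lactate libraries that did not overlap media libraries, 4 above and 1 below, beside 44.7% of all genes.

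The acyl-CoA dehydrogenases differ in the chain length they take, and each had its own pattern. Acadl (chr1:66830839-66863277, minus strand), for long chains, was the most changed of the 10 genes with activation. It measured 57.3, 57.1, 55.5 and 54.2 CPM in naïve libraries, 181, 179, 181 and 176 CPM in media, and 158, 183, 176 and 180.3 CPM with lactate. The groups of activated cells overlapped each other and lay far above naïve cells, including naïve replicate 4. The log2 fold change was 1.68 ± 0.07 (SE, 3.20-fold, adjusted p = 3.8e-09, edgeR) in media and 1.64 ± 0.07 (3.11-fold, adjusted p = 3.8e-09) with lactate. Lactate against media was -0.04, with a 95% interval from -0.19 to 0.12.

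Acadvl, for very long chains, was called higher in every comparison. Its levels were 68.6, 66.1, 68.6 and 61.3 CPM in naïve libraries, 85.7, 84.6, 90.9 and 95.1 CPM in media and 103, 126, 125 and 129 CPM with lactate, with no overlap between any groups. The log2 fold change was 0.43 ± 0.09 (SE, adjusted p = 0.00091, edgeR) for media against naïve, 0.87 ± 0.09 (1.82-fold, adjusted p = 2.2e-06) for lactate against naïve and 0.44 ± 0.09 (1.36-fold, adjusted p = 0.0022) for lactate against media. Within the low and high runs the lactate difference was 0.39 and 0.42, and with the donor as a block the adjusted p was 0.0087. Without lactate replicate 4 it missed the threshold (adjusted p = 0.0108), and the media difference from naïve cells did so without naïve replicate 2 (adjusted p = 0.0105) or media replicate 4 (adjusted p = 0.0102). The exons of Acadvl (chr11:70010183-70015411, minus strand) overlap those of Dvl2, on the opposite strand, over 42.85% of their length. Whether reads were counted by strand is not given in the sources used here. Dvl2 itself had 737 to 934 counts in naïve libraries, 1010 to 1448 counts in media and 546 to 865 counts with lactate. From naïve to media it moved in the same direction as Acadvl, and from media to lactate in the opposite direction. The part of Dvl2 reads in the Acadvl differences was not tested.

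Acadm (chr3, minus strand), for medium chains, went the other way. It had 57.7, 49.2, 52.5 and 59.4 CPM in naïve libraries, 46.1, 49.1, 39.7 and 44.3 CPM in media and 37.8, 42.8, 40.0 and 39.3 CPM with lactate. Lactate libraries lay below all naïve libraries, with a log2 fold change of -0.45 ± 0.10 (SE, adjusted p = 0.00087, edgeR), the only called decrease among the members in any comparison. Media against naïve was -0.29 ± 0.10 (adjusted p = 0.017) and was not called, though it passed in DESeq2 (adjusted p = 0.00070) and when naïve replicate 2 or 3 or lactate replicate 3 or 4 was left out (adjusted p from 0.0028 to 0.0085). Lactate and media overlapped, at -0.16 with a 95% interval from -0.37 to 0.04.

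The difference between Acadl and Acadvl appears as a ratio within each library, which no scaling between libraries can change. These ratios were chosen after the values had been seen. The count of Acadl over that of Acadvl was 0.808 to 0.885 in naïve libraries, 1.85 to 2.11 in media and 1.39 to 1.54 with lactate. The groups did not overlap, and each pair of groups had p = 0.0286 in an exact two-sided permutation test, the smallest that 4 against 4 samples allow. Cpt2 over Cpt1a was 0.0928 to 0.248, 0.255 to 0.325 and 0.327 to 0.455 in the same order, also without overlap (exact permutation p = 0.0286 for each pair of groups), although naïve replicate 4 at 0.248 was close to media replicate 4 at 0.255.

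The trifunctional protein is built from α subunits encoded by Hadha (hydratase and 3-hydroxyacyl-CoA dehydrogenase) and β subunits encoded by Hadhb (thiolase). The genes lie head to head on chromosome 5, Hadha on the minus strand at 30118304 to 30155162 and Hadhb on the plus strand at 30155248 to 30184593. These positions are from the GENCODE M21 annotation, with 85 bases between the annotated starts. That stretch, chr5:30155163-30155247, is shown because it lies upstream of both genes. Its bases come from RefSeq (GRCm38.p6), on the strand of Hadhb, with GC boxes (GGGCGG) in capitals. The motif windows described below use the RefSeq starts, which differ from these.
Hadha–Hadhb gap: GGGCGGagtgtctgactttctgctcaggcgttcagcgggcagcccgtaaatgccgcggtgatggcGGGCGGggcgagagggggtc

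Between lactate and media neither partner was called, and the signs of their differences were opposite. Hadha had 161, 164, 157 and 195 CPM in naïve libraries, 201, 198, 203 and 229 CPM in media and 220.0, 199, 249 and 253 CPM with lactate. Hadhb had 36.6, 39.1, 40.1 and 44.8 CPM in naïve libraries, 38.2, 43.5, 40.2 and 48.8 CPM in media and 32.7, 30.7, 36.3 and 36.4 CPM with lactate. All activated libraries were above the naïve ones for Hadha, and all lactate libraries were below all others for Hadhb. Hadha against naïve cells was 0.30 ± 0.10 (log2, SE, adjusted p = 0.021, edgeR) in media, not called, and 0.45 ± 0.10 (1.36-fold, adjusted p = 0.0017) with lactate, which was lost without naïve replicate 2, naïve replicate 3, lactate replicate 3 or the fourth lactate library (adjusted p between 0.018 and 0.022) and with these groups alone (adjusted p = 0.0106). The media difference passed without naïve replicate 4 (0.37, adjusted p = 0.0039). Lactate against media was 0.15 for Hadha, with a 95% interval from -0.08 to 0.37, and -0.33 ± 0.11 (adjusted p = 0.028) for Hadhb. The Hadhb difference was not called in edgeR without further terms, passed in DESeq2 (adjusted p = 0.0053) and with a term for the library run (adjusted p = 0.0031), and was -0.36 and -0.42 within the low and high runs. Against naïve cells Hadhb was at 0.09 (adjusted p = 0.48) in media and -0.24 (adjusted p = 0.058) with lactate.

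The ratio of the subunits' counts differed between the groups with little spread within them. Hadha over Hadhb was 4.38, 4.19, 3.91 and 4.35 in naïve libraries, 5.25, 4.55, 5.05 and 4.69 in media, and 6.72, 6.50, 6.85 and 6.95 with lactate. The means were 4.21 ± 0.22 (SD, n = 4), 4.89 ± 0.32 and 6.76 ± 0.20. No groups overlapped, and the log2 difference of lactate against media was 0.47 (exact two-sided permutation p = 0.0286). This ratio too was chosen after the values had been seen, so that its p is not independent support. Counts are not divided by length here, so that the ratio compares libraries and is not the proportion of subunits. The overlap of Hadha with another gene is 0.86% of its exons, and Hadhb has none.

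**Figure D2:**
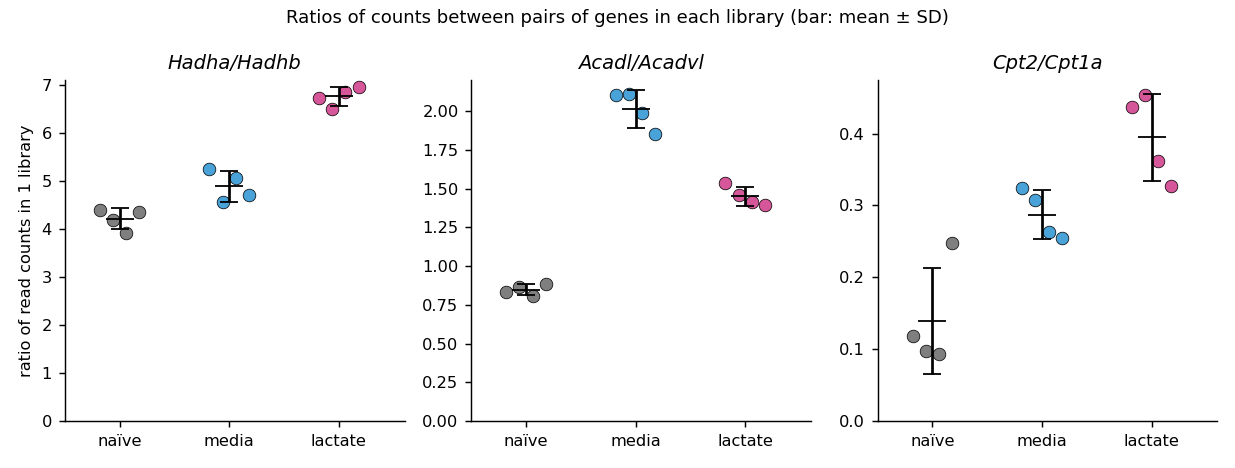
Ratio of the read counts of paired genes within each library, with points for the 4 libraries of a group, bars for the mean ± SD and axes that start at 0. Hadha over Hadhb rises from 3.91 to 4.38 in naïve libraries to 6.50 to 6.95 with lactate, and Acadl over Acadvl is highest in media at 1.85 to 2.11.

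Electron transfer flavoprotein is a dimer of the products of Etfa and Etfb and collects electrons from many mitochondrial dehydrogenases besides those of fatty acids. The stretches upstream of both genes are shown because both contain CCAAT boxes (CCAAT or its reverse complement ATTGG) close to the start, in capitals. They are from RefSeq (GRCm38.p6), each on the strand of its gene, chr9:55512244-55512296 (minus) for Etfa and chr7:43443988-43444071 (plus) for Etfb, where the last capitals mark a match to the NRF1 motif (GCGCA, any base, GCGC).
Etfa: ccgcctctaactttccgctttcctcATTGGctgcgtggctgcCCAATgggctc
Etfb: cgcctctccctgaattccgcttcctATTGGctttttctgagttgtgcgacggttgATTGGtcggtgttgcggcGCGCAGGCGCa

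Etfa showed the clearest lactate difference of the 10 genes. It had 46.7, 48.3, 46.6 and 43.4 CPM in naïve libraries, 76.3, 69.6, 80.0 and 88.9 CPM in media and 102, 112, 113 and 119.9 CPM with lactate. Every library of a group lay above every library of the group before. The log2 fold change was 0.77 ± 0.09 (SE, 1.70-fold, adjusted p = 9.8e-06, edgeR) for media against naïve, 1.27 ± 0.09 (2.41-fold, adjusted p = 1.0e-07) for lactate against naïve and 0.50 ± 0.09 (1.42-fold, adjusted p = 0.0010) for lactate against media. Within the low and high runs the last was 0.50 and 0.39, and it stayed past the threshold in all 25 alternatives, with adjusted p up to 0.0059 and 0.0042 with the donor as a block.

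Etfb was the least abundant of the 10 genes in CPM, and in naïve and media libraries the most variable. Its levels were 6.93, 9.55, 4.47 and 3.25 CPM in naïve libraries, 9.62, 6.88, 8.30 and 8.78 CPM in media and 14.9, 14.8, 12.2 and 13.0 CPM with lactate. Lactate libraries were above all others, and naïve and media libraries overlapped. Lactate against naïve was called at 1.18 ± 0.27 (log2, SE, 2.27-fold, adjusted p = 0.0017, edgeR), and without naïve replicate 3 it just missed (adjusted p = 0.0101). Lactate against media was 0.71 ± 0.27 (1.63-fold, adjusted p = 0.054) and was not called. In fits without the naïve libraries, whose spread for Etfb was 46.1% of the mean against 13.7% in media and 9.73% with lactate, it passed: the adjusted p was 0.0021 with media and lactate libraries alone and 0.0054 with the donor as a block. The exons of Etfb overlap Gm45233 and Mir7051, on the same strand, over 58.25% of their length, and Gm45233 is not a row of the count table. The ratio of Etfa to Etfb counts overlapped between media and lactate, at 7.93 to 10.1 and 6.84 to 9.29 (exact two-sided permutation p = 0.171).

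Etfdh (chr3), the ubiquinone oxidoreductase that takes the electrons from ETF, did not follow it under lactate. It had 44.2, 47.6, 44.2 and 65.4 CPM in naïve libraries, 66.9, 78.0, 74.7 and 78.1 CPM in media and 56.0, 58.9, 67.3 and 72.8 CPM with lactate. All media libraries were above naïve ones, with naïve replicate 4 highest of its group, and lactate libraries overlapped both. Media against naïve was 0.56 ± 0.14 (log2, SE, 1.48-fold, adjusted p = 0.0025, edgeR). It was lost without naïve replicate 1, 2 or 3 or media replicate 4 (adjusted p from 0.011 to 0.021) and was 0.71 without naïve replicate 4 (adjusted p = 5.7e-05). Lactate against naïve was 0.34 (adjusted p = 0.036), not called, and 0.48 without naïve replicate 4 (adjusted p = 0.00088). Lactate against media was -0.22, with a 95% interval from -0.52 to 0.07.

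**Figure D3:**
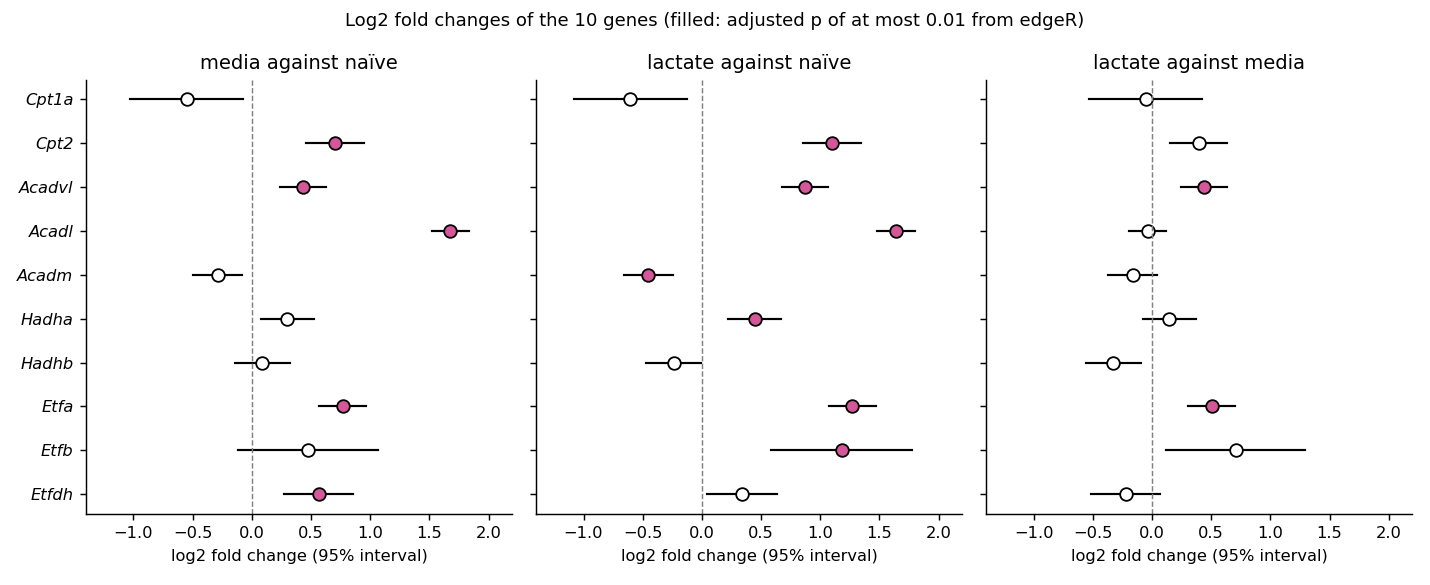
Log2 fold change of each gene in each comparison, with the 95% interval of the edgeR model as lines and filled points where the adjusted p was at most 0.01. Acadl is at 1.68 and 1.64 against naïve cells and at -0.04 between activated groups, where only Etfa (0.50) and Acadvl (0.44) are filled.

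The windows around the annotated starts of the 10 genes, 250 bases before to 50 after in RefSeq, were searched on both strands for short motifs. The hexamer AGGTCA, which nuclear receptors recognise, was in the windows of Acadm, Acadvl and Cpt1a, and in 16.3% of all 32851 windows. The stretch of Acadvl, chr11:70015485-70015540 on the minus strand, is shown with the hexamer in capitals, because Acadvl was called in all 3 comparisons.
Acadvl: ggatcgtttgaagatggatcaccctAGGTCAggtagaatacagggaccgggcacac
The GC box was in 7 of the 10 windows (35.7% of all windows), the CCAAT box in those of Cpt1a, Etfa, Etfb and Etfdh (37.4%), the NRF1 motif in those of Etfb and Etfdh (4.60%), and the ETS motif CCGGAAGT in that of Cpt2 (3.89%). The GC box holds only G and C, and the windows of the 10 genes had 50.7 to 70.3% G and C, beside a median of 52.7% over all windows. The shares were not adjusted for this. No window of the 10 held the PPAR element (AGGTCA, any base, AGGTCA, in 0.0396% of all), the ERR element TCAAGGTCA (0.423%), the E box CACGTG (7.15%) or the TATA box TATAAA (13.6%). The PPAR and ERR elements contain the hexamer. A match of letters is not evidence of binding. Only exact letters were searched, and with elements as rare as those of PPAR and ERR their absence from 10 windows is uninformative.

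Fatty acid uptake, activation and the carnitine shuttle, the steps that deliver acyl chains to these enzymes, changed in both directions with lactate. Of 20 genes tested 5 were higher and 3 lower, beside 25.1% of all genes called, and the median log2 fold change was 0.19. The 8 calls became 2 without media replicate 2 or lactate replicate 3, 3 without lactate replicate 1 or 4, 5 without media replicate 3 or 4, and 12 without naïve replicate 4. Over all genes the calls moved as well, from 2252 to 4845 without single libraries. Acsl1, an acyl-CoA synthetase, rose from 6.40 ± 1.94 (SD, n = 4) to 19.0 ± 2.62 CPM (1.57, adjusted p = 0.0040, edgeR). Fabp5, an intracellular fatty acid carrier, rose from 34.9 ± 6.72 to 61.3 ± 8.24 CPM (0.81, adjusted p = 0.00555), and the mitochondrial malonyl-CoA synthetase Acsf3 rose by 0.74 (adjusted p = 0.0099). The transporter Cd36 was called higher at 20 to 60 counts per lactate library against 2 to 8 counts in media. Slc27a1, a fatty acid transport protein, fell by 0.87 (adjusted p = 0.0055), and Acss1, which activates acetate in mitochondria, fell from 73.0 ± 15.8 to 34.5 ± 2.32 CPM (adjusted p = 0.00015). Cpt1c, a relative of Cpt1a that is mainly neuronal, fell from 4.04 ± 0.280 to 1.22 ± 0.702 CPM (adjusted p = 0.0035). The carnitine-acylcarnitine carrier Slc25a20, which works between the transferases, was at 22.0 ± 1.37 CPM in media and 28.5 ± 1.10 CPM with lactate, without overlap and not called (0.38, adjusted p = 0.016), and passed without naïve replicate 4 (adjusted p = 0.0055). Cpt1b was not analysed here.

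Of 27 other enzymes of mitochondrial β-oxidation tested 2 were higher and 1 lower with lactate, beside 25.1% of all genes called. Their median was -0.14. Acad9, a dehydrogenase that also serves complex I assembly, rose from 25.2 ± 1.01 (SD, n = 4) to 39.1 ± 2.32 CPM (0.63, adjusted p = 0.00033, edgeR), and Mmut, the methylmalonyl-CoA mutase at the end of odd-chain oxidation, rose by 0.51 (adjusted p = 0.0026). Ech1, an isomerase for unsaturated chains, fell from 152 ± 10.1 to 106 ± 11.3 CPM (-0.52, adjusted p = 0.0036). The short-chain enzymes gave -0.18 for Hadh (adjusted p = 0.67), -0.15 for Echs1 (adjusted p = 0.27) and 0.38 for Acads (adjusted p = 0.015), and the thiolase Acaa2 gave 0.28 (adjusted p = 0.41). None of them was called, and Acads passed without naïve replicate 4 (adjusted p = 0.0049). The 3 calls of the list became 10 without naïve replicate 4. Calls over all genes ran from 2252 to 4845 without single libraries.

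Among 21 genes of flavin supply, of other routes into ETF and of ubiquinone synthesis, lactate gave 8 higher and 1 lower, and the median was 0.38. Of all genes tested 25.1% were called, 13.9% higher and 11.1% lower, and the difference from this share was not tested. They include Pdss1, which starts the ubiquinone side chain, from 8.55 ± 1.58 (SD, n = 4) to 20.5 ± 2.89 CPM (1.26, adjusted p = 0.00054, edgeR), and the riboflavin transporter Slc52a2, from 9.66 ± 1.27 to 20.5 ± 2.87 CPM (1.08, adjusted p = 0.00013). The ubiquinone synthesis genes Coq4 (1.07, adjusted p = 0.0012) and Coq7 (0.85, adjusted p = 0.0095) rose as well, and 27.1% of the exons of Coq4 overlap Trub2 on the other strand. Etfrf1, a regulator that removes the flavin from ETF, fell from 11.8 ± 1.48 to 6.78 ± 0.506 CPM (-0.80, adjusted p = 0.0012).

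Of the regulators 3 were higher and 1 lower of 20 tested with lactate, near the background of 25.1% called, and the median was -0.0067. The 4 calls became 1 without media replicate 2, 2 without media replicate 3 or lactate replicate 1, 2 or 4, and 6 without naïve replicate 4. Over all genes the calls ran from 2252 to 4845 without single libraries. The nuclear receptor Esrra rose from 25.3 ± 2.57 (SD, n = 4) to 39.6 ± 2.93 CPM (0.65, adjusted p = 0.0025, edgeR), the lipid droplet coat gene Plin2 rose by 0.88 (adjusted p = 0.0018), and the corepressor Nrip1 fell by 0.70 (adjusted p = 0.0052). Pparg was called higher at 26 to 69 counts per lactate library against 3 to 17 in media. The enzymes that set malonyl-CoA, the inhibitor of CPT1, were not called: Acaca gave 0.01 (adjusted p = 0.97, with negative values under other scalings), the mitochondrial carboxylase Acacb -0.78 (adjusted p = 0.034, groups without overlap), and the decarboxylase Mlycd -0.18 (adjusted p = 0.30). The coactivator Ppargc1b gave 0.22 (adjusted p = 0.64). Ppara, Ppard and Ppargc1a were not analysed here.

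Peroxisomal β-oxidation, which shortens very long and branched chains, was split under lactate, where 2 of 16 genes tested rose, 3 fell and the median was -0.10. Of all genes tested 25.1% were called, 13.9% higher and 11.1% lower. The peroxisomal membrane transporter Abcd3 rose from 41.5 ± 4.38 (SD, n = 4) to 87.5 ± 23.9 CPM (1.07, adjusted p = 0.00061, edgeR). Hsd17b4, the bifunctional enzyme, rose by 0.65 (adjusted p = 0.00017), while Phyh, which starts α-oxidation, fell by 1.01 (adjusted p = 0.00555). Fatty acid synthesis, the opposing pathway, had 3 genes higher and 4 lower of 23 tested, beside the same 25.1% of all genes, with a median of 0.05. Calls over all genes ran from 2252 to 4845 without single libraries. The 7 synthesis calls became 4 without media replicate 2 or lactate replicate 3 or 4, and 11 without naïve replicate 4. The higher ones were the mitochondrial synthesis genes Mecr (0.72) and Mcat (0.71) and the elongase Elovl1 (0.64), and the lower ones were the desaturase genes Scd2 (-0.61) and Fads1 (-0.93), Acss2 (-0.95) and Elovl7 (-1.57). Of the 31 genes outside the 10 that the naming rule took as called with lactate, 16 lost the call when some single library was left out (adjusted p in edgeR up to 0.0347), namely Acsf3, Acsl1, Acss2, Cd36, Coq7, Cpt1c, Ech1, Esrra, Fabp5, Mcat, Mecr, Nrip1, Phyh, Pparg, Scd2 and Slc27a1.

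**Figure D4:**
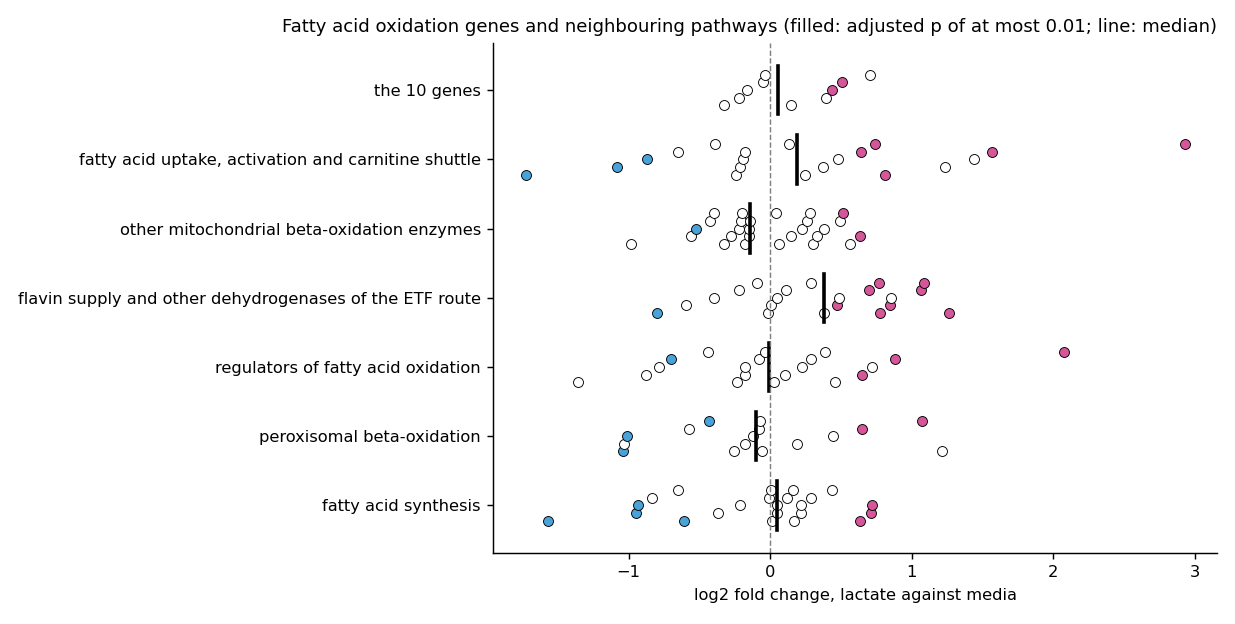
Log2 fold change of lactate against media for every tested gene of the lists (points; filled pink, called higher; filled blue, called lower; open, not called), with the median of each list as a line. The 10 genes spread from -0.33 to 0.71 around a median of 0.05, and the list of flavin supply, other ETF routes and ubiquinone synthesis has the highest median, 0.38.

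Activation in media gave the following counts in the neighbouring lists, beside 28.5% of all genes higher and 29% lower, and differences between lists were not tested. Of the other mitochondrial enzymes 13 were higher and 3 lower (median 0.49), of the synthesis genes 17 higher and 1 lower (median 0.88), of the regulators 2 higher and 9 lower (median -0.47), of the flavin and ubiquinone genes 7 higher and 5 lower (median 0.22), of the uptake and shuttle genes 9 higher and 5 lower (median 0.40), and of the peroxisomal genes 1 higher and 4 lower (median -0.09). Ech1 rose from 49.2 ± 7.02 (SD, n = 4) to 152 ± 10.1 CPM (1.63, adjusted p = 1.6e-07, edgeR), Decr1, the reductase for unsaturated chains, rose by 1.51 (adjusted p = 5.2e-06), and Mmab, a cobalamin enzyme of the propionate route, rose by 1.74 (adjusted p = 2.3e-06). The acyl-CoA thioesterase Acot2 fell from 21.7 ± 5.23 to 3.37 ± 1.15 CPM (-2.69, adjusted p = 3.0e-06), and Pccb and Mmaa of the propionate route fell by 1.12 and 1.07. These directions held within both library runs, but in the high run 1 media library is compared with naïve replicate 4 alone.

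In the remaining lists, Coq3 (1.46), Coq7 (1.30) and the riboflavin transporter Slc52a3 (1.09) rose with activation in media, while Slc52a2 (-1.22), Coq8a (-1.06) and the isovaleryl-CoA dehydrogenase gene Ivd (-0.73, and -0.07 in the high run) fell. Among the regulators Acacb (1.38) and the mitochondrial deacetylase Sirt3 (0.88) rose. Among the synthesis genes the largest increases were Fads2 from 2.10 ± 1.17 (SD, n = 4) to 168 ± 21.1 CPM (6.32) and then Scd2 from 106 ± 25.9 to 3238 ± 225 CPM (4.93), while Hacd1 rose by 2.40 and Elovl7 fell by 1.04. Hacl1 (2.40, with 33.33% of its exons overlapping other genes) rose among peroxisomal genes, and Acox3 (-0.81) and Scp2 (-0.72, with 0.20 in the high run, and lost without naïve replicate 1 or any of media replicates 1 to 3) fell. Acsl6 (4.25), Fabp5 (2.32) and Cpt1c (4.40, from 2 to 4 counts per naïve library) rose among uptake and shuttle genes. Several genes that fell are also expressed by macrophages, whose markers fell with them: Cd36 from 36.4 ± 25.5 to 0.240 ± 0.122 CPM, Pparg from 12.5 ± 7.41 to 0.588 ± 0.306 CPM, Rxra from 59.7 ± 23.3 to 3.72 ± 1.40 CPM, Mgll from 7.48 ± 5.67 to 0.252 ± 0.139 CPM, and Acsl1 from 24.3 ± 14.5 to 6.40 ± 1.94 CPM. Fabp4 and Abcd2 had 29 to 80 and 34 to 186 counts per naïve library and at most 1 count in a media library. The part of other cells in these decreases was not tested.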

How the data were processed

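Libraries were made with a stranded mRNA kit and sequenced on an Illumina NextSeq. Per the paper's methods and the submitters' processing notes, the authors used bcl2fastq 2.20.0.422, aligned reads to mm10/GRCm38 with STAR 2.7.5b, took out PCR duplicates, counted uniquely mapped reads over exons with featureCounts, and deposited raw counts per gene for 12 libraries. Groups, donors and library numbers came from the labels. The members and lists were chosen with earlier results of these data known.

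The filter asked for at least 1 CPM in at least 3 libraries and kept 13767 of 13780 genes, dropping 13. Counts were scaled by TMM and fitted in edgeR 4.0.16 (R 4.3.3) with 1 quasi-likelihood model of 3 groups over all 12 libraries and no block. Two-sided p-values were adjusted by Benjamini-Hochberg over the 13767 genes, with calls at 0.01. The SE of a log2 fold change is its size over the root of F, and 95% intervals use the t quantile. Log2 CPM used a prior count of 2. Single ratios, all chosen after the values had been seen, were tested by exact permutation over 70 arrangements, which took no account of shared donors. TPM used the longest coding transcript or the exon union of GENCODE M21. The model was checked on simulated counts. Alternatives included DESeq2 1.42.0 and limma 3.58.1. Differences within a library run and the transcript lengths were added after seeing the data. The naming rule took all 10 members, up to 4 called genes per direction and list for lactate against media, up to 3 for media against naïve, and 15 genes of entry and control whatever their result. Some genes this rule takes are not reported here.

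Same-numbered media and lactate titles deviated together with r of 0.374, 0.297, 0.0038 and 0.553, and libraries of the same donor, taken from the donor tags within a library run, with r of 0.374, 0.211 and 0.553. The donor tags pair 3 media with 3 lactate libraries. These r cannot settle the pairing, since media and lactate replicates 2, from different donors by the tags, had 0.297, above the 0.211 of a tagged pair. Replicates differed by 5.75 to 138 in chi-square per gene, so none was a copy. Samples came from separate animals within a group. No library was left out.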

Additional observations from a re-analysis of the deposited data

Results flagged for a closer look

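Of 30 groups of 4 libraries (10 genes in 3 groups), 3 held a library whose distance from its neighbour exceeded Dixon's 95% critical value, relative to the group's range, where chance gives about 5% of groups. Acadvl in lactate replicate 1 was lowest of its group at 103 CPM, which was still above all media libraries. Hadha in media replicate 4 was highest at 229 CPM. Etfdh in naïve replicate 4, the library with low Cd8a, was highest at 65.4 CPM.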

How the results depend on the processing

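With lactate against media, the 2 members called became 4 in DESeq2, 4 at an adjusted p of at most 0.05, and 1 to 3 when single libraries were left out. With media against naïve, 5 became 8 at an adjusted p of at most 0.05 and 3 to 7 without single libraries, the 3 being without media replicate 4. With lactate against naïve, 7 ran from 5 to 9. Over all 25 alternatives Etfa stayed called for lactate against media and Acadvl was lost once, without lactate replicate 4. A replicate block by title number, which is not a pairing by donor, gave 2, 5 and 7 members, and the replicate block by donor gave 3 for lactate against media and added Etfb. Title numbers of naïve libraries deviated with r from -0.137 to -0.00348 from the activated ones. Directions near 0 turned for Cpt1a without lactate replicate 2 (range without single libraries -0.107 to 0.000974) and Acadl without lactate replicate 1 (-0.0602 to 0.00738) in lactate against media, and for Hadhb in media against naïve without naïve replicate 2 (-0.00747) or media replicate 4 (-0.0471 to 0.140 without single libraries). Acaca for lactate against media turned in DESeq2 (-0.0209), voom (-0.00282), DESeq2 size factors (-0.0207), upper quartile scaling (-0.0174), total counts (-0.0338) and the donor block (-0.0658), and ran from -0.0912 to 0.106 without single libraries, below 0 without media replicates 2 or 4 or lactate replicates 1 or 3. Calls in the lists for lactate against media ran from 2 to 12 (uptake and shuttle), 2 to 10 (other mitochondrial enzymes), 6 to 12 (flavin and ubiquinone), 1 to 9 (regulators), 4 to 7 (peroxisomal) and 4 to 11 (synthesis). Over all genes 3451 calls became 5461 at an adjusted p of at most 0.05. Without single libraries they ran from 2252, without media replicate 2, to 4845. Etfb, with 58 to 290 counts per library, has the least depth of the 10 genes.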
